A study of Mus musculus with 2 samples.

Results

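Bile acid and drug transport in hepatocytes was followed through 9 genes, chosen by symbol, among the 31053 gene rows of a single-cell RNA table of the mouse liver. They were the sinusoidal uptake carriers Slc10a1, Slco1b2, Slco1a1 and Slco1a4, the canalicular pumps Abcb11, Abcb4 and Abcc2, and the basolateral pumps Abcc3 and Abcc4. All 9 were found. They were described in 8509 hepatocytes of 13151 barcodes, a hepatocyte being a barcode in which Alb, Apoa1, Apoa2, Ttr and Fgb together made up at least 1% of the gene UMIs (unique molecules counted). Of the 10219 barcodes that passed the quality limits, 1710 fell under this threshold. The rule for choosing cells used no measured value of the 9 genes, but the genes were chosen with earlier results of these data known.

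Hepatocytes take up bile acids from sinusoidal blood, mainly through the sodium-dependent carrier NTCP (Slc10a1) and the sodium-independent organic anion carriers of the OATP family (Slco genes), and secrete them into the bile canaliculus through the bile salt export pump BSEP (Abcb11). MDR2 (Abcb4) moves phosphatidylcholine into bile and MRP2 (Abcc2) exports conjugated bilirubin and drug conjugates there. MRP3 (Abcc3) and MRP4 (Abcc4) sit on the blood side and return conjugates and bile acids to the circulation, and both are known for higher levels in cholestasis. The nuclear receptor FXR (Nr1h4) senses bile acids, and the hepatocyte factor HNF4A is a known regulator of the uptake genes.

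The cells came from 3 female C57BL/6 mice (strain BL6 in the labels), which were injected by hydrodynamic tail vein injection, a fast, large-volume injection that brings plasmids into a fraction of hepatocytes. All 3 received a transposon with the strong CAGGS promoter, which is not specific to hepatocytes, and a plasmid for the SB13 transposase. The transposon carried the fluorescent protein mVenus with either oncogenic NRAS(G12V) or NRAS(G12V/D38A), whose added effector-loop change is known to block downstream signalling, so no mouse lacked a transgene. Livers were dissociated on day 6, and cells positive for mVenus were sorted, tagged with one hashtag per mouse and pooled for 3′ sequencing. The sources disagree on the mice. The deposited pairing makes hashtag 1 the NRAS(G12V/D38A) mouse, whereas the study's methods make it a G12V mouse and give the control construct to hashtag 3. Hashtag 2 is a G12V mouse in both. Mice are therefore named by hashtag, and no comparison of constructs was made.

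Cells were compared by transgene level instead. The mouse Nras row takes up construct reads, and its level in CPM (UMIs scaled to 1000000 gene UMIs of the cell or sum) defined 4 classes, namely baseline (under 250), low (250 to under 750), intermediate (750 to under 2000) and high (2000 or more). The mVenus level, which the classes did not use, followed them, at 9.0, 74.4, 148 and 332 CPM in hashtag 1 and 6.72, 64.2, 148 and 293 in hashtag 2. Cells with at least 10000 gene UMIs were called deep (2306 hepatocytes) and those with 1000 to under 10000 shallow (6203). Hashtags assigned 1385 deep hepatocytes to a mouse, 231 to hashtag 1, 1129 to hashtag 2 and 25 to hashtag 3. Hashtag 3 held only 20 baseline cells and 5 others, too few to sum, so the Nras comparisons rest on 2 mice. Class sums held 148, 29, 22 and 32 cells from baseline to high in hashtag 1, and 800, 127, 105 and 97 cells in hashtag 2. In the gene table, 142080194 gene UMIs were counted, with a median of 3908 per barcode.

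The 5 genes of the rule summed to 66254 to 99888 CPM in deep baseline cells, which describes the choice of cells and does not check the label. The label was checked against markers of other cell types that the rule did not use. In deep baseline cells macrophage markers summed to 5.52 CPM or less, with Clec4f and Cd5l at 0 in 2 of the 3 mice, and stellate markers to 1.37 or less. Endothelial markers summed to 15.1 and 125 CPM in hashtags 2 and 1 and to 1011 in hashtag 3, and antigen-presenting markers, led by Cd74, to 198, 2025 and 1450. Cholangiocyte markers were the highest of these lists, at 3577, 2502 and 2665 CPM in hashtags 1, 2 and 3. Nearly all of it was Spp1, at 3489, 2424 and 2607. Of the deep hepatocytes, 91 carried 0.2% or more of UMIs from other cell types, cholangiocyte markers not counted. The shallow hepatocytes met the rule less clearly, with medians of 1.72 to 2.21% of UMIs from the 5 genes in baseline cells of the 3 mice, and endothelial markers at 3873 CPM in hashtag 3. The median mitochondrial share of baseline cells was 0.314% in shallow and 8.45% in deep cells, with cells not called for a mouse included. In hashtags 1, 2 and 3 it was 0.788, 1.79 and 5.55% in shallow cells. Deep cells there had 7.21, 8.97 and 5.63%, so hashtag 3 differed little. Deep and shallow cells are therefore kept apart throughout.

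The genes lie on 7 chromosomes (GRCm38, GENCODE annotation). Slco1b2 is at chr6:141629518-141686646 on the plus strand, and Slco1a4 (chr6:141805440-141856199) and Slco1a1 (chr6:141907282-141946962) follow it on the minus strand. Slc10a1 is at chr12:80953183-80968705 and Abcb11 at chr2:69238282-69342616, both on the minus strand. The Abcb11 locus overlaps the antisense gene Gm13613, and whether counting used strand is not given in the sources used here, so reads of the pair may not be told apart. Abcb4 (chr5:8893717-8959231) and Abcc2 (chr19:43782192-43840740) are on the plus strand, and Abcc3 (chr11:94343295-94392997) and Abcc4 (chr14:118482692-118706219) on the minus strand.

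Promoters of the 3 genes that fell with Nras, and of Abcc4, which did not fall, are shown for reference. They are the 250 bases before the start site in RefSeq (GRCm38.p6), 5′ to 3′ on the gene's strand. The table matched 8 of the 9 genes. Capitals mark matches, on either strand, to a nuclear receptor half-site (AGGTCA), an AP-1 site (TGANTCA) or a TATA box (TATAAA). These letters occur in 13.8%, 6.87% and 13% of 27025 promoters of this length, respectively.
Slc10a1 (chr12:80968706-80968955, minus strand): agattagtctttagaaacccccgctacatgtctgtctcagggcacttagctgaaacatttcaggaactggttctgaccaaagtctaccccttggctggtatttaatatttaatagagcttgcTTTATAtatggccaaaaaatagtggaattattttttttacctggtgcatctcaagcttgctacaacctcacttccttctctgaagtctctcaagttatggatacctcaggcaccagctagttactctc
Slco1b2 (chr6:141629268-141629517, plus strand): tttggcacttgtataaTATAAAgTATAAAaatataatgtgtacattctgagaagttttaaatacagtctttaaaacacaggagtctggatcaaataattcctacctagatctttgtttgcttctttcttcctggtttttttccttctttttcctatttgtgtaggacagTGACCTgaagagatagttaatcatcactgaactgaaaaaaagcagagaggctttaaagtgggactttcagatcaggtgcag
Abcb11 (chr2:69342617-69342866, minus strand): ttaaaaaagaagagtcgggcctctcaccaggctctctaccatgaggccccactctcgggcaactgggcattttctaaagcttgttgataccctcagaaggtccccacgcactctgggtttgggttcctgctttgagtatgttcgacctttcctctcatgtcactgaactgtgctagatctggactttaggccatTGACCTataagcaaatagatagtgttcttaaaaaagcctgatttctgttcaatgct
Abcc4 (chr14:118706220-118706469, minus strand): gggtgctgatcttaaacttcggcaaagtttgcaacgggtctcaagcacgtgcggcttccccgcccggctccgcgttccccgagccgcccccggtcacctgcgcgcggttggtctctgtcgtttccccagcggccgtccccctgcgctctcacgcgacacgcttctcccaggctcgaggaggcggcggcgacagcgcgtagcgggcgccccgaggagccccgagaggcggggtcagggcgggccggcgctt
In the Slco1b2 window the half-site began 81 bases before the start, with TATA matches 234 and 227 bases before it. Abcb11 held the half-site at 56 bases and Slc10a1 a TATA match at 128 bases. Outside these, the Abcc2 window held the half-site at 49 bases and the Slco1a1 window held it at 134 and 24 bases, while the Slco1a4, Abcb4 and Abcc4 windows held none of the 3. A match describes the letters and is not evidence of binding.

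To ask how transport genes change with transgene level, UMIs were summed per mouse and class and compared with edgeR's quasi-likelihood test, with the mouse as a block and Benjamini-Hochberg adjustment over all genes. Of the 7 transporters with enough counts to test, Slc10a1, Slco1b2 and Abcb11 were lower in high than in baseline cells and none was higher. Across 11063 genes, 24.6% were called in this comparison, 12.2% lower and 12.4% higher, with a median log2 change of -0.03. The median of the 7 was -0.36.

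Slc10a1 stood at 34.4 CPM in baseline cells of hashtag 1 (176 UMIs, exact Poisson 95% interval 29.5 to 39.9), 17.6 in low, 4.54 in intermediate and 1.73 in high cells. Hashtag 2 gave 52.8, 13.5, 6.03 and 2.21 CPM in the same order, and the baseline cells of hashtag 3 gave 36.0. Every baseline value lay above every low value, and every low value above every intermediate and high one. The fitted log2 change from baseline to high was -4.47 ± 0.30 (SE, edgeR adjusted p = 4.73e-06), a 22.2-fold lower level. The high-class sums held 3 and 13 UMIs. Poisson intervals throughout cover counting error only.

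Slco1b2, an organic anion carrier of the sinusoidal membrane, showed the largest fitted change of the 7. It went from 71.6 to 20.9, 3.78 and 4.04 CPM in hashtag 1. In hashtag 2 it went from 125 to 32.7, 12.7 and 2.37, and hashtag 3 stood at 65.3 at baseline. The baseline and low values did not overlap with each other or with those of the upper classes. The high-class sums held 7 and 14 UMIs in hashtags 1 and 2, and the intermediate sum of hashtag 1 held 5. The log2 change from baseline to high was -5.32 ± 0.28 (edgeR adjusted p = 1.54e-06), or 39.8-fold. It was -5.75 in hashtag 2 alone and -4.07 in hashtag 1 alone, each without a test since no residual degrees of freedom were left.

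RNA free in the suspension, or hepatocyte RNA in mixed barcodes, can give UMIs in cells that do not express a gene, and the source was not tested. Deep barcodes of other cells, which lay under the hepatocyte threshold and had 0.2% or more of UMIs from markers of other cell types (408 barcodes), held 5.88 Slc10a1 and 16.9 Slco1b2 CPM, above the high-class levels of both mice. The share of hashtag 2 cells with a Slc10a1 UMI, after thinning each cell to 10000 UMIs, was 28.2% at baseline, 10.2% in low, 3.81% in intermediate and 1.03% in high cells (48.5%, 25.2%, 16.2% and 6.19% before thinning). In the barcodes of other cells it was 5.88% (6.37% before thinning), at a median of 12043 UMIs against 41792 and 59753 in baseline and high cells of hashtag 2. Slco1b2 went from 31.6% to 12.6%, 4.76% and 3.09% (44.8%, 26.8%, 14.3% and 10.3% before thinning), with 10.3% in barcodes of other cells (13.0% before thinning). At the common depth the shares in intermediate and high cells were lower than in barcodes of other cells, whereas before thinning the intermediate shares of both genes were higher and the high-class shares lower than there. The depths differ, so these values set no floor for the deeper cells, and whether the remaining UMIs of intermediate and high cells came from the cells themselves cannot be told from them.

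Abcb11, the pump that sets bile-salt secretion, also fell. Its levels from baseline to high were 36.6, 23.5, 6.05 and 14.4 CPM in hashtag 1. They were 47.6, 30.7, 12.8 and 6.62 in hashtag 2, and hashtag 3 stood at 24.8 at baseline. The high cells of both mice lay under all baseline cells, but in hashtag 1 the high cells (25 UMIs, interval 9.33 to 21.3) stood above the intermediate ones (8 UMIs, 2.61 to 11.9). The log2 change from baseline to high was -2.31 ± 0.30 (edgeR adjusted p = 0.000297), 4.96-fold. It was -2.88 in hashtag 2 alone and -1.28 in hashtag 1 alone. Barcodes of other cells held 1.47 CPM, below every class.

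**Figure D1:**
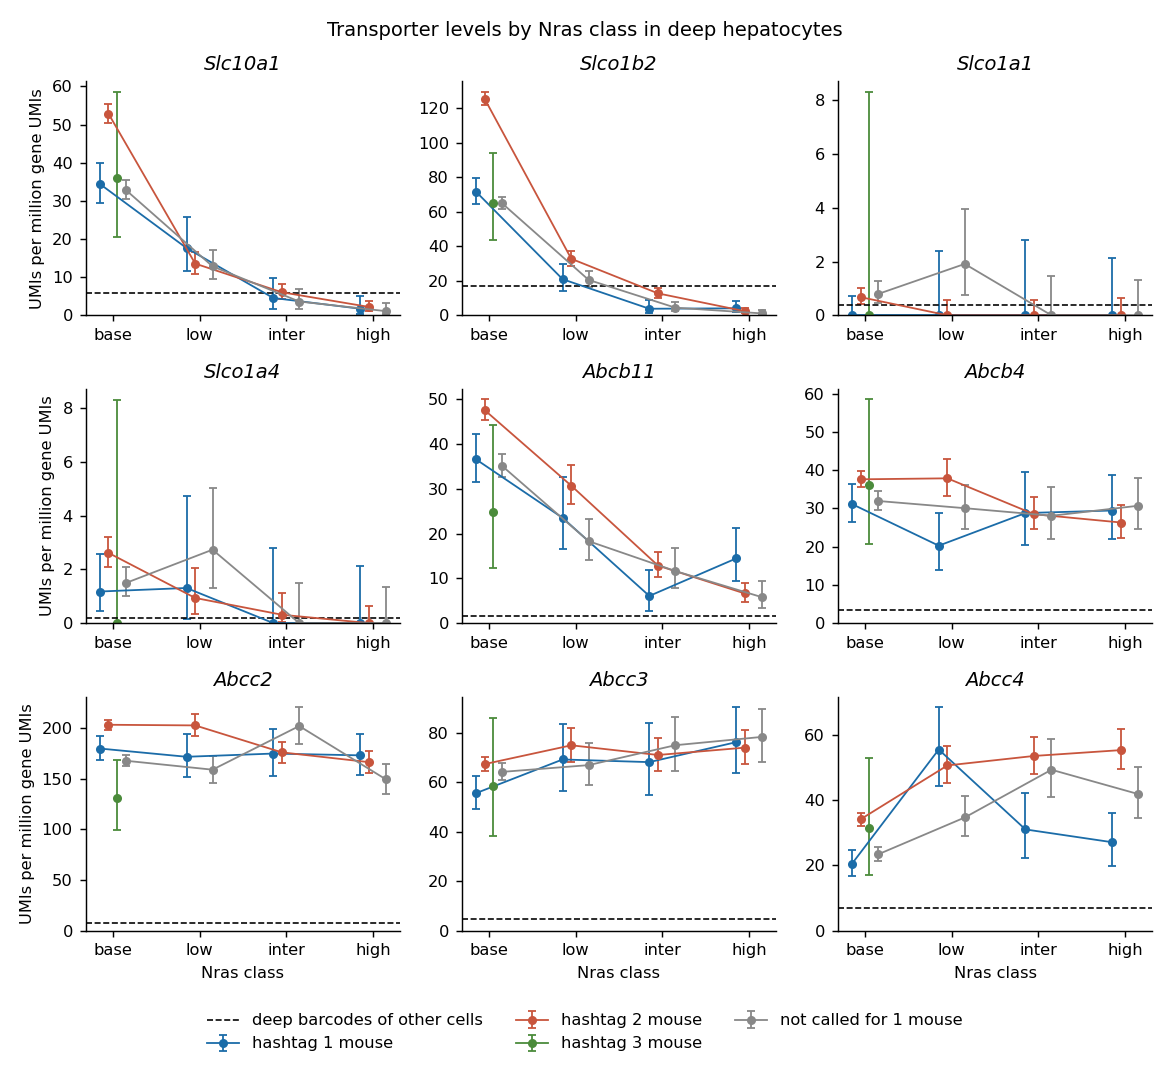
Level in CPM of the 9 transporters (vertical axes, linear from 0) by Nras class in deep hepatocytes. Points are sums of at least 10 cells with exact Poisson 95% intervals, coloured by mouse, grey for cells not called for 1 mouse. The dashed line is the level in deep barcodes of other cells. Slc10a1 and Slco1b2 drop to or under that line. Abcb4, Abcc2 and Abcc3 change far less, with Abcb4 going from 37.6 to 26.3 in hashtag 2.

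The canalicular pumps Abcb4 and Abcc2 did not pass the test. Abcb4, which flips phosphatidylcholine into bile, measured 31.1, 20.2, 28.8 and 29.4 CPM from baseline to high in hashtag 1 and 37.6, 37.8, 28.5 and 26.3 in hashtag 2, and the 36.0 of hashtag 3 at baseline lay between them. Its classes overlapped between mice, and its change from baseline to high was -0.36 ± 0.19 on the log2 scale (edgeR adjusted p = 0.213, approximate 95% interval -0.74 to 0.01). Abcc2, the conjugate pump, measured 180, 172, 175 and 173 CPM in hashtag 1, 203, 203, 176 and 166 in hashtag 2 and 131 at baseline in hashtag 3. These levels rest on 231 UMIs or more in each class of hashtags 1 and 2. The log2 change was -0.17 ± 0.12 (edgeR adjusted p = 0.352, interval -0.39 to 0.06), which does not reach the change of Abcb11, and the value was 0.00 in hashtag 1 alone and -0.32 in hashtag 2 alone.

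The basolateral pumps had fitted changes above 0 but did not pass the threshold. Abcc3 measured 55.6, 69.2, 68.1 and 76.2 CPM in hashtag 1, 67.3, 74.9, 71.0 and 74.0 in hashtag 2 and 58.5 at baseline in hashtag 3. Both high values lay above all 3 baseline values, by 0.28 ± 0.13 on the log2 scale (edgeR adjusted p = 0.144). Abcc4 measured 20.5, 55.5, 31.0 and 27.1 CPM in hashtag 1, 34.2, 50.6, 53.5 and 55.3 in hashtag 2 and 31.5 at baseline in hashtag 3. In hashtag 1 the low class was highest, in hashtag 2 the levels of the 3 upper classes were close, and the high value of hashtag 1 lay under the baseline values of the other mice. The change from baseline to high was 0.62 ± 0.21 (edgeR adjusted p = 0.0594), and that from baseline to low was 0.89 ± 0.21 (adjusted p = 0.0505). Both sit at the threshold and passed it under some of the alternatives, such as the rule with 5% of UMIs from the 5 genes (0.99, adjusted p = 0.0174, and 0.89, adjusted p = 0.0199).

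Slco1a1 and Slco1a4, the remaining uptake carriers, were too low to test. Slco1a1 had 23 UMIs in baseline cells of hashtag 2 (0.675 CPM) and 0 in every other class sum of a called mouse (cells not called for a mouse held 17 at baseline and 7 in the low class), and the sums at 0 allow levels up to 0.464 to 6.75 CPM, the level of 3 counts in each sum. Close paralogues of this family can share reads, so both levels are uncertain. Slco1a4 had 6 UMIs in baseline cells of hashtag 1 (1.17 CPM) and 89 in those of hashtag 2 (2.61 CPM). Hashtag 2 then gave 0.934, 0.309 and 0 CPM in low, intermediate and high cells. The 3-count floor of that high-class sum (0.509 CPM) lies 5.13-fold under its baseline level, and the upper Poisson limit of the sum is 0.626 CPM. Cells not called for a mouse held 1.49 Slco1a4 CPM at baseline, 2.73 in low and 0 in intermediate and high cells. In female mice Slco1a1 is known to be low in liver, which is background and was not tested.

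The deep hepatocytes that no single hashtag claimed (921 cells) were not used in the fit. Their levels followed the same order, with Slc10a1 at 32.9, 12.8, 3.61 and 1.08 CPM from baseline to high. Slco1b2 stood at 64.9, 20.5, 4.41 and 1.08, and Abcb11 at 35.1, 18.3, 11.6 and 5.77. Abcc2 measured 168, 159, 202 and 149 CPM, and Abcc4 measured 23.4, 34.7, 49.3 and 41.9. They share mice with the called cells and are no independent replicate.

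Taken step by step, both carriers were lower in the low than in the baseline class with these class limits. From baseline to low, Slc10a1 changed by -1.64 ± 0.21 (edgeR adjusted p = 0.00252) and Slco1b2 by -1.89 ± 0.19 (0.000711), while 3.59% of the 11063 genes were called, 1.79% lower. Abcb11 changed by -0.61 ± 0.25 and did not pass (adjusted p = 0.257). From low to intermediate only Slco1b2 of the 7 passed, at -1.51 ± 0.25 (adjusted p = 0.0371), beside 0.452% of genes called, 0.244% lower. That call was lost without the mouse block (-1.45, adjusted p = 0.534), and the low-class call of Slco1b2 was lost likewise (-1.67, adjusted p = 0.0593). The low-class calls also depended on the class limits. With limits at 150, 500 and 1500 CPM, Slc10a1 changed by -0.79 (adjusted p = 0.185) and Slco1b2 by -1.31 (adjusted p = 0.0672) at this first step, and with Nras quartiles by -0.03 and -0.10, none passing. Slc10a1 and Abcb11 changed by -1.39 ± 0.31 and -1.35 ± 0.32 from low to intermediate (adjusted p = 0.0908 and 0.112), and passed in 4 and 2 alternatives. From intermediate to high none of the 7 passed, and only 0.0181% of genes did. Slc10a1 changed by -1.45 ± 0.44 and Slco1b2 by -1.92 ± 0.38 there, and Abcb11 by -0.35 ± 0.38, with adjusted p of 0.486, 0.247 and 0.982. Under the alternatives Slc10a1 passed in 2, Slco1b2 in 3 and Abcb11 in 1. Abcc4 passed in none of the 3 steps, with 0.89, -0.23 and -0.04 in order. Without hashtag 2 the first step of Slc10a1 was -0.88 and without hashtag 1 it was -1.98, and the second step of Slco1b2 was -2.48 without hashtag 2 and -1.35 without hashtag 1, all without a test.

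**Figure D2:**
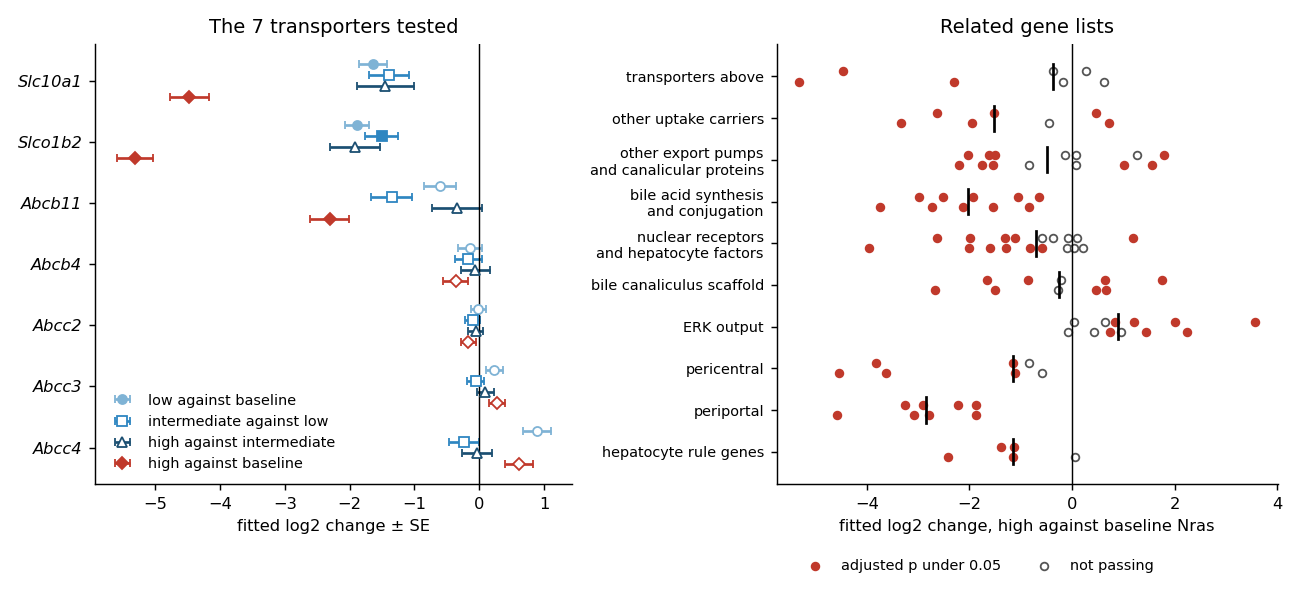
Left, fitted log2 change ± SE of the 7 tested transporters for each Nras step and for high against baseline; filled symbols passed the adjusted p of 0.05. Right, log2 change from baseline to high of each tested gene in the related lists (red passed, open did not), with the list median as a bar; the 10 bile acid synthesis genes all lie left of 0.

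Marker levels and depth moved along with the classes. These include the share of the 5 hepatocyte genes, by which the cells were chosen. The median share of the 5 hepatocyte genes fell from 4.79% to 3.52% in hashtag 1 and from 9.28% to 3.63% in hashtag 2 between baseline and high. Cholangiocyte markers went from 3577 and 2502 CPM to 17452 and 17560 in hashtags 1 and 2, nearly all of it Spp1 (osteopontin) at 17268 and 17429, while Krt19 and Cftr were at 0 in the high cells of both mice. Endothelial markers were at 16.7 and 13.6 CPM in high cells, macrophage markers at 1.73 and 15.1. Antigen-presenting markers moved in opposite directions, with 2025 CPM at baseline and 340 in high cells of hashtag 1, against 198 and 417 in hashtag 2. Median depth went from 28079 to 55883 UMIs in hashtag 1 and from 41792 to 59753 in hashtag 2. The part of these shifts in the transporter changes was not tested, apart from the following measurements. With cells thinned to 10000 UMIs the changes were -4.08 for Slc10a1, -4.86 for Slco1b2 and -2.21 for Abcb11, and without the barcodes rich in other markers -4.42, -5.26 and -2.33, all still passing the test.

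The hepatocyte share itself marked large differences between cells of baseline Nras. In hashtag 2, cells with 10% or more of their UMIs from the 5 genes (375 cells) held 90.6 Slc10a1, 230 Slco1b2 and 76.6 Abcb11 CPM. Cells with 1 to under 5% (187 cells) held 4.03, 6.67 and 5.005. Hashtag 1 gave 83.0, 162 and 86.6 CPM in 30 cells against 17.1, 38.0 and 5.36 in 76 cells. Abcc2 moved little across these strata, at 184 and 206 CPM in hashtag 2 and 160 and 154 in hashtag 1, and Abcc4 went the other way, with 16.6 and 60.3 in hashtag 2 and 13.2 and 25.7 in hashtag 1. The cholangiocyte markers stood at 1098 and 4988 CPM in those 2 strata of hashtag 2.

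The levels were then set side by side by Nras class within a stratum. Among all deep hepatocytes with 10% or more from the 5 genes, Slc10a1 measured 83.4, 36.1, 21.7 and 9.03 CPM in 640 baseline, 65 low, 37 intermediate and 17 high cells. Slco1b2 measured 195, 80.6, 33.0 and 4.01, and Abcb11 74.1, 68.6, 42.8 and 31.1. These cells showed the drop of both carriers at the first step, whereas Abcb11 at the first step differed by less than its counting intervals. Abcc4 measured 15.4, 27.8, 34.0 and 34.1 CPM there and Abcb4 32.2, 26.5, 33.0 and 49.2. Most high cells (137 of 195) had 1 to under 5% from the 5 genes, and there the 3 falling genes were low already at baseline. Slc10a1 measured 6.63, 3.06, 0.644 and 0.568 CPM in 551 baseline, 116 low, 110 intermediate and 137 high cells of this stratum. Slco1b2 measured 15.5, 4.89, 1.45 and 1.28, on 9 UMIs in each of the upper classes. Abcb11 measured 5.11 (interval 4.08 to 6.33), 5.30, 3.70 and 2.27 (1.30 to 3.69), so its baseline level there lay under the 7.72 CPM of all deep high cells. In the stratum between, from 5 to under 10%, Abcb11 measured 30.2, 18.8, 7.38 and 13.8, higher in the high than in the intermediate class. In cells with 1 to under 5%, where Abcc4 was already at 45.8 CPM at baseline, its later classes measured 58.1, 52.3 and 49.9. The strata pool mice and carry no test. In the test itself, limiting hepatocytes to 5% or more from the 5 genes gave -3.64 for Slc10a1, -5.13 for Slco1b2 and -1.96 for Abcb11 from baseline to high, all passing.

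**Figure D3:**
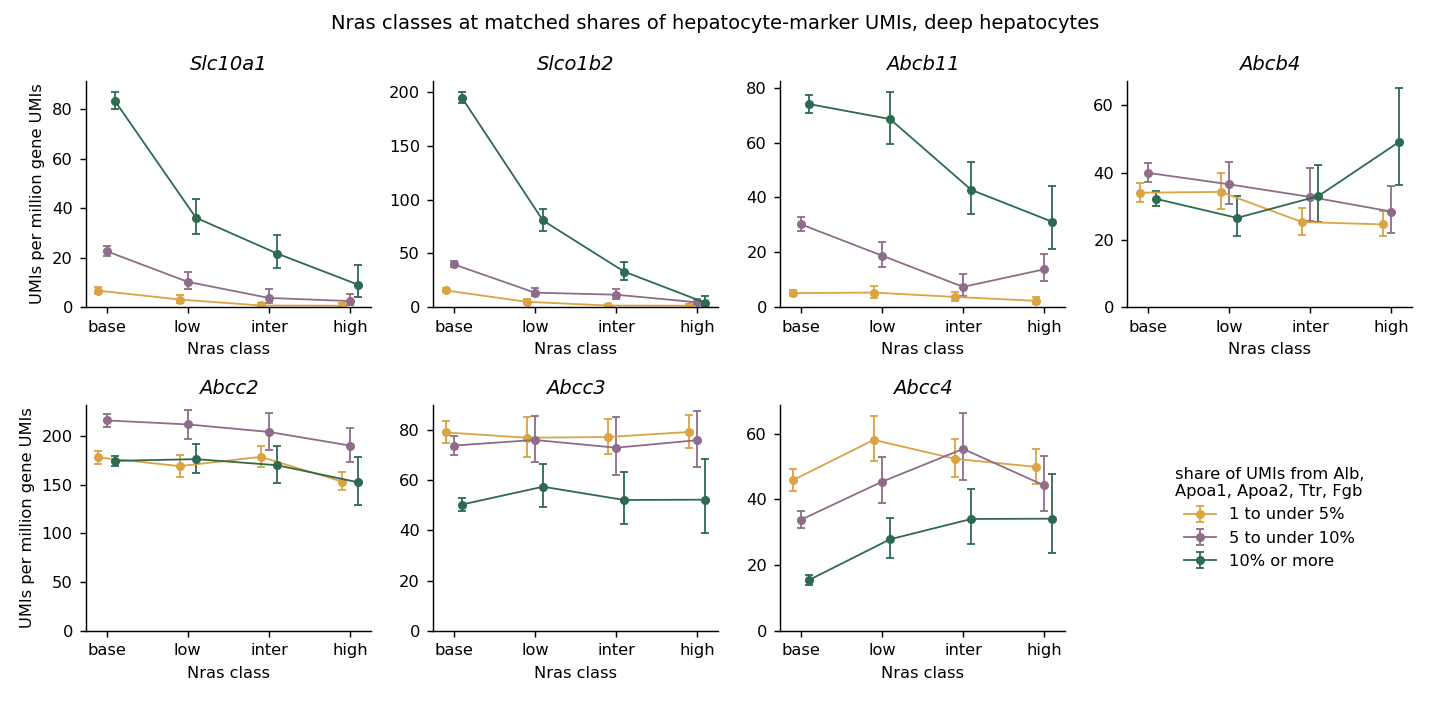
CPM (linear axes from 0) of 7 transporters by Nras class, in deep hepatocytes split by the share of UMIs from the 5 hepatocyte genes; points are sums over cells of all mice with exact Poisson 95% intervals. Slc10a1, Slco1b2 and Abcb11 are highest in the stratum of 10% or more and fall with Nras within it, and Abcc4 is lowest there and is higher in its upper classes.

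Position along the lobule was examined in baseline deep cells with 10% or more from the 5 genes, which were split into terciles within each mouse by the ratio of 8 pericentral to 8 periportal genes. Slco1b2 was strongly pericentral, at 539 CPM in the pericentral tercile of hashtag 2 (125 cells, interval 519 to 561), 163 in the middle and 55.8 in the periportal tercile. Hashtag 1, with 10 cells in each, gave 412, 69.5 and 40.5. The intervals of the pericentral and periportal terciles were far apart in both mice. Slc10a1 in hashtag 2 measured 120, 77.7 and 79.99 CPM and in hashtag 1 88.4, 49.95 and 109, so the mice did not share an order. Slco1a4 measured 6.86, 3.50 and 2.45 CPM in hashtag 2, and 1 UMI in each tercile of hashtag 1. Abcb11 measured 101, 66.5 and 67.2 in hashtag 2. Abcc2 was near level, at 194, 191 and 170, as was Abcc3 at 47.2, 53.5 and 56.1. Pericentral genes fell with Nras as well, 5 of 7 tested, and all 8 periportal genes did. From baseline to high, 12.2% of all genes tested were lower.

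**Figure D4:**
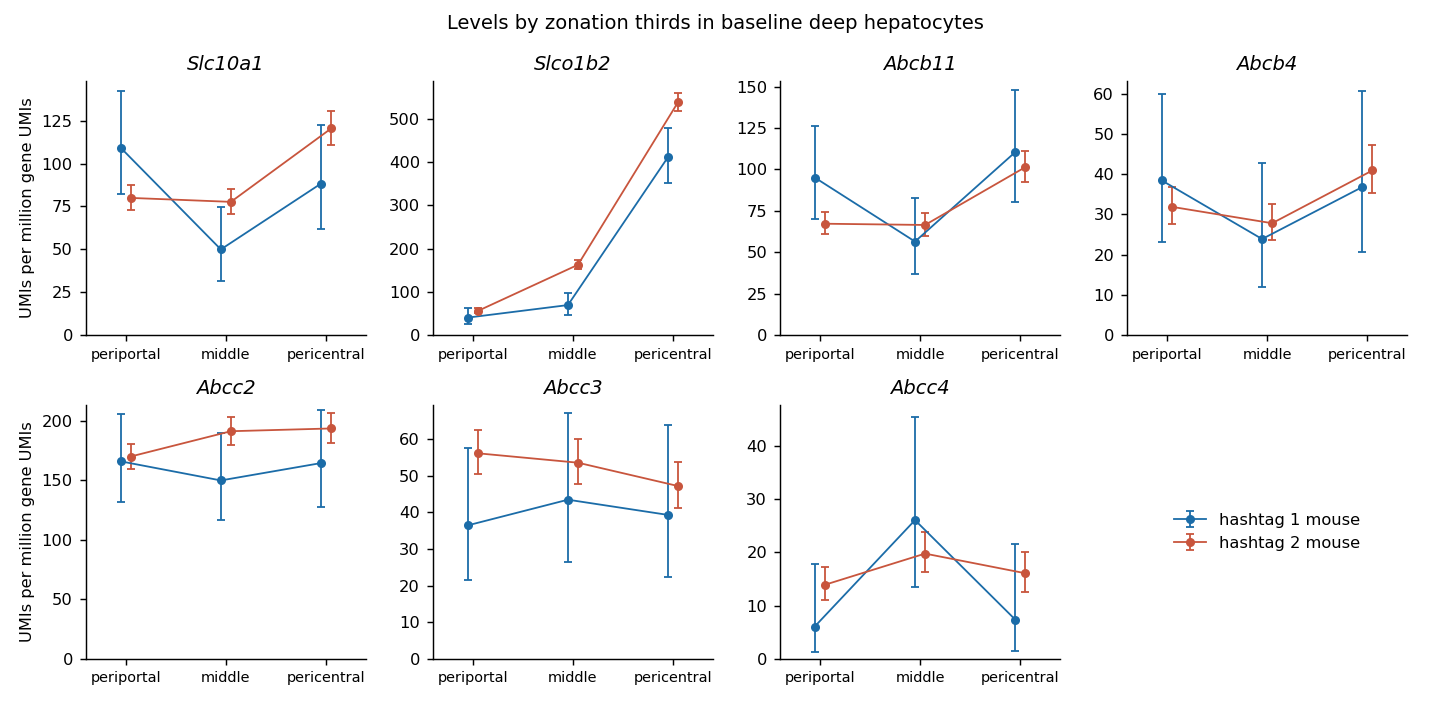
CPM (linear axes from 0) of 7 transporters in terciles of baseline deep hepatocytes ordered from periportal to pericentral, by mouse, with exact Poisson 95% intervals; hashtag 1 has 10 and hashtag 2 has 125 cells a tercile. Slco1b2 climbs to 412 and 539 in the pericentral tercile, and Abcc2 stays between 150 and 194.

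Sequencing depth was examined at baseline Nras, where all 3 mice could be used. Within this class Nras stood at 71.8, 69.1 and 81.0 CPM in deep cells of hashtags 1, 2 and 3. Shallow cells there had 24.6, 39.9 and 26.0, so the class did not match the Nras level between depths. The mVenus level was higher in deep cells of hashtags 1 and 2. It was lower in those of hashtag 3, at 2.25 CPM (1 UMI) against 27.0. Deep cells held higher CPM of the pumps than shallow cells, and the uptake carriers did not pass. Of the 7 transporters tested, 5 were higher in deep cells, beside 33.6% of 7037 genes called, 17.1% higher. Abcc3 was at 55.6, 67.3 and 58.5 CPM in deep and 3.88, 12.3 and 10.0 in shallow cells of hashtags 1, 2 and 3. The log2 difference was 2.97 ± 0.28 (edgeR adjusted p = 0.00124). These shallow values rest on 3, 13 and 10 UMIs, and the first sits at the 3-count floor. Abcc2 was at 180, 203 and 131 in deep and 19.4, 77.8 and 17.0 in shallow cells, a difference of 2.47 ± 0.33 (adjusted p = 0.00353). For both genes no shallow value reached a deep one. Abcb4, Abcc4 and Abcb11 were also higher, by 1.93 ± 0.34, 1.49 ± 0.43 and 1.45 ± 0.28 (edgeR adjusted p = 0.00818, 0.0407 and 0.0113). In shallow cells of hashtag 1 they had 3, 1 and 7 UMIs.

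Slc10a1 was at 34.4, 52.8 and 36.0 CPM in deep and 40.1, 31.3 and 38.0 in shallow cells, and these values overlapped (0.38 ± 0.27, edgeR adjusted p = 0.323). Slco1b2 was lower in the deep cells of each mouse, with 71.6, 125 and 65.3 against 85.3, 194 and 78.1, a difference of -0.22 ± 0.12 that did not pass (adjusted p = 0.219). It passed once barcodes rich in other markers were left out (-0.48, adjusted p = 0.0158). The deep and shallow barcodes also differed in the hepatocyte share, in Nras and mVenus level, in mitochondrial share in hashtags 1 and 2, and in the markers given above. Depth and these properties cannot be told apart in the comparison. Where both had 5% or more from the 5 genes, Abcc2 differed by 0.45 (edgeR adjusted p = 0.527) and Abcb11 by 0.09 (adjusted p = 0.958). Fewer genes had enough counts there, 2605 against 7037, and 59 of any kind were called. Fewer cells entered, so the lost calls do not show that the difference was absent. With deep cells thinned to the depths of shallow cells, the Abcc3 and Abcc2 differences were 2.88 and 2.03 and still passed. Without hashtag 1 or without the mouse block, Abcb11 (1.18, adjusted p = 0.0604, and 1.48, adjusted p = 0.0558) and Abcc4 (1.07, adjusted p = 0.0809, and 1.35, adjusted p = 0.124) no longer passed. With the fixed hashtag rule Abcb11 (adjusted p = 0.130) and Abcb4 (adjusted p = 0.0617) no longer passed, and with thinning Abcc4 did not (adjusted p = 0.0566). Without hashtag 2 the Abcc2 difference was 3.23.

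**Figure D5:**
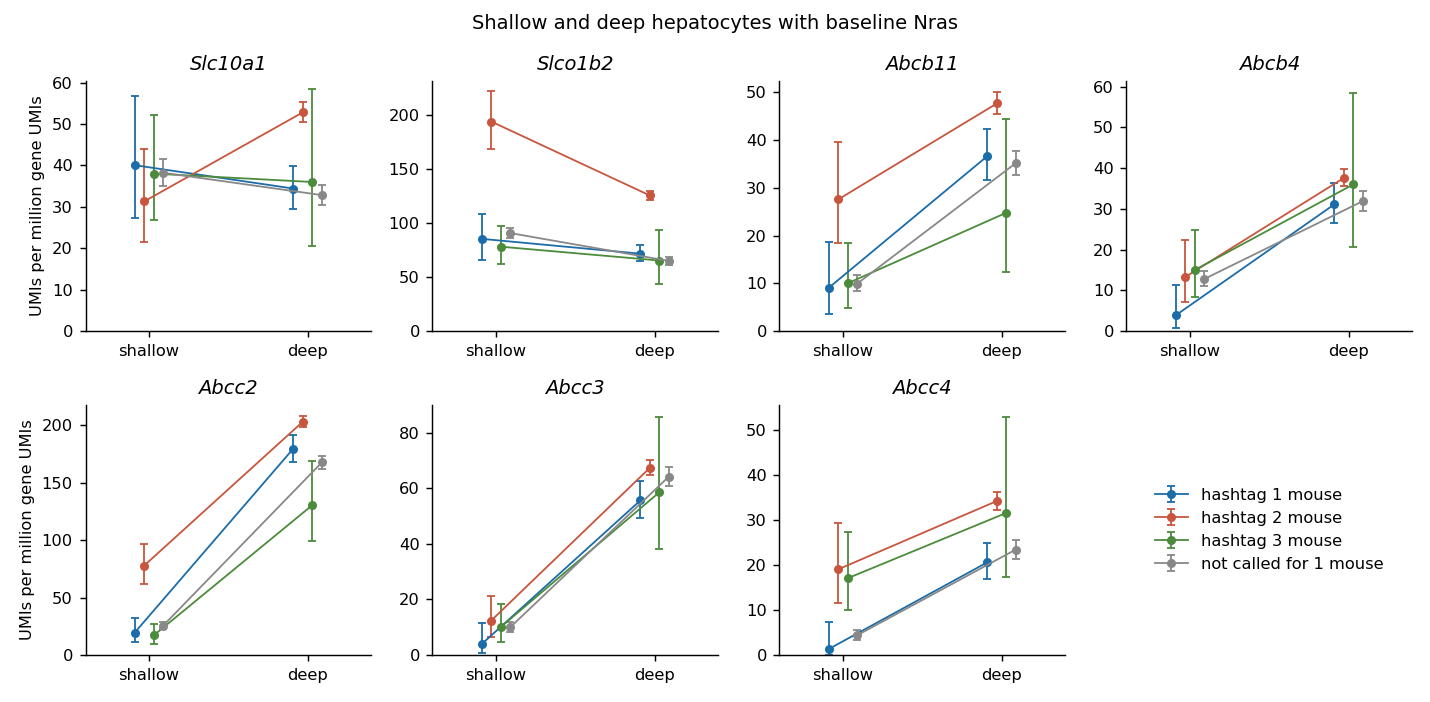
CPM (linear axes from 0) of 7 transporters in shallow and deep hepatocytes with baseline Nras, by mouse and for cells not called for 1 mouse (grey), with exact Poisson 95% intervals. Abcc2 and Abcc3 are higher in deep cells of every mouse, and the lines of Slc10a1 cross.

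Related genes of the pathway were counted in the high against baseline comparison, in which 12.2% of the 11063 genes tested were lower and 12.4% higher. The lists held genes picked for their known roles, with earlier results of these data known. Of the bile acid synthesis and conjugation list, all 10 tested of 13 genes were lower, with a median of -2.03. Akr1d1, the reductase of the steroid ring, changed by -3.74 ± 0.26 (edgeR adjusted p = 5.11e-06), from 50.5 and 28.9 CPM at baseline to 5.19 and 1.70 in hashtags 1 and 2. Scp2, a peroxisomal sterol carrier and thiolase, changed by -2.12 ± 0.11 (adjusted p = 1.54e-06). Cyp7a1, the rate-limiting enzyme of synthesis, was too low to test, at 1.57 and 0.763 CPM at baseline.

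Among 7 tested uptake carriers outside the 9 genes, 4 were lower and 2 higher, with a median of -1.52. Of all genes tested, 12.2% were lower and 12.4% higher. The glucose carrier Slc2a2 changed by -3.34 ± 0.24 and Slc17a2 by -2.63 ± 0.31. The prostaglandin carrier Slco2a1, of the same family as Slco1b2, changed by 0.71 ± 0.13 (58.3 and 66.0 CPM at baseline, 104 and 99.7 in high cells) and the nucleoside carrier Slc29a1 by 0.46 ± 0.13. Among 14 tested other export pumps and canalicular proteins, 6 were lower and 3 higher, with a median of -0.49. The sterol half-transporter Abcg5 changed by -2.02 ± 0.27. The multidrug pump Abcb1a changed by 1.80 ± 0.24 (5.09 and 3.76 CPM at baseline, 19.6 and 12.2 in high cells) and the drug and urate pump Abcg2 by 1.01 ± 0.14 (34.6 and 31.2 against 79.0 and 57.7). The edgeR adjusted p of these 7 genes ran from 7.32e-06 to 0.0265.

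Of 18 nuclear receptors and hepatocyte factors, 10 were lower and 1 was higher, with a median of -0.70. The shares over all genes tested were 12.2% lower and 12.4% higher. The bile acid receptor Nr1h4 changed by -2.01 ± 0.21 (edgeR adjusted p = 6.82e-05) and its target, the corepressor Nr0b2, by -1.99 ± 0.18 (adjusted p = 2.30e-05), while the dioxin receptor Ahr changed by 1.19 ± 0.14 (adjusted p = 0.000123). Of 10 genes that build the canaliculus, 4 were lower and 4 higher, with a median of -0.25. Ezr, a membrane-to-actin linker, changed by 1.75 ± 0.18, whereas Rdx, the linker that anchors canalicular pumps in hepatocytes, changed by -0.85 ± 0.10 and the claudin Cldn1 by -1.66 ± 0.21 (edgeR adjusted p from 7.29e-05 to 0.000261). Of 12 genes known as outputs of ERK signalling, 7 were higher and none lower, with a median of 0.90. Fosl1, an AP-1 subunit, changed by 3.56 ± 0.32 and the cyclin Ccnd1 by 1.44 ± 0.13 (adjusted p = 2.53e-05 and 2.42e-05). Of the 5 genes of the hepatocyte rule, 4 were lower, with a median of -1.15. The cells were chosen by these genes, so this count describes them and is no separate support.

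The genes most like the member with the largest fall were sought among 2189 genes with a mean of at least 50 CPM, over the 9 mouse-by-class sums. C8g, Apoc1 and Mgst1 tracked Slco1b2 on the log2(CPM + 1) scale with Pearson r of 0.996, 0.996 and 0.994. For Abcc4 the nearest were Gm3776, Slc48a1 and Guk1 at 0.834, 0.834 and 0.832. The sums share mice and depth order, so these values describe likeness only.

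At the hepatocyte threshold itself, baseline deep barcodes just outside (0.5 to under 1%, 73 cells) and just inside (1 to under 1.5%, 87 cells) held 15.1 and 14.4 Slc10a1, 42.4 and 28.9 Slco1b2, 61.1 and 107 Abcc2, and 32.3 and 49.5 Abcc3 CPM. The cholangiocyte markers stood at 785 and 9121 CPM on the 2 sides.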

How the data were processed

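Both tables were used as deposited by the authors: raw UMI counts per gene and barcode from Cell Ranger (2.1.1 in the submitters' processing notes, mm10 genome), and raw counts per hashtag and barcode. The authors normalized neither. Of the barcodes, 13141 were in both tables. A barcode was kept from 500 genes and 1000 UMIs upwards if its mitochondrial share stayed below 20%. Mice were called with HTODemux (Seurat 5.3.0, positive quantile 0.99), and 115 hepatocytes called as doublets of different mice were left out of the sums; doublets within a mouse stay. In deep cells, a fixed rule (10 hashtag UMIs, 80% from 1 tag) called none for another mouse, but left 749 of the 1129 hashtag 2 cells uncalled and gave 299 uncalled cells to hashtag 1. The Nras, mVenus and hashtag rows were left out of library sizes.

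UMI counts were summed per mouse and class (at least 10 cells) and fitted with edgeR 4.0.16 in R 4.3.3 (TMM, filterByExpr, quasi-likelihood F-test, mouse as block, Benjamini-Hochberg over all genes tested, threshold 0.05). The Nras fit had 3 and the depth fit 2 residual degrees of freedom. Pairing comes from the animal, since sums of 1 mouse share its hashtag. With 2 mice in the Nras fit, p-values rest on the spread between these sums, which edgeR moderates with the spread of all genes. They do not measure the spread between mice at large. The SE is the size of the fitted log2 change divided by the square root of the test's F statistic. Levels are CPM (UMIs scaled to 1000000 gene UMIs) with exact Poisson 95% intervals; in a 3′ library they compare a gene between cells, not genes with each other. The script was tested on simulated data. DESeq2 1.42.0 and other settings were tried as alternatives, and those for other-cell markers, strata and lobule position were chosen after seeing the data. The members and gene lists were chosen with earlier results of these data known. Named outside the 9 genes are, per list, the genes with the smallest adjusted p in each direction from baseline to high (up to 2), and the 3 genes most like the members with the largest rise and fall; Cyp7a1 was named after its values were seen, and a few genes this rule names are not reported here. Abcc3 had no promoter in the table used here.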

Additional observations from a re-analysis of the deposited data

How the results depend on the processing

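From baseline to high, Slc10a1, Slco1b2 and Abcb11 kept their direction and their call in every alternative that gave a test (Slc10a1 from -3.59 to -4.67, Slco1b2 from -3.63 to -5.40, Abcb11 from -1.96 to -2.75), including mVenus in place of Nras (-4.67, -3.63 and -2.24). Abcc4 passed in 7 alternatives, and Abcb4, Abcc2 and Abcc3 in none. Leaving out hashtag 1 or 2 left no residual degrees of freedom, so no test; sums of at least 3 cells were the same sums. The mouse block changed no other call than those given in the report.

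Numbers of genes called changed by over 1.5 times as follows; the cause was not tested. From baseline to high (2722) they were 1360 with DESeq2, 1655 with the 5% hepatocyte rule and 1092 after thinning. From baseline to low (397) they were 201 with DESeq2, 925 without a filter on low counts, 143 with no replicate block, 46 with Nras cuts at 150, 500 and 1500, 0 with Nras quartiles, 155 after thinning and 662 without barcodes rich in other markers. From low to intermediate (50) they were 78, 461, 0, 140, 0, 7 and 201 in the same order, and 203 with the fixed hashtag rule. From intermediate to high (2, and 751 at an unadjusted p under 0.05) they were 13 with DESeq2, 250 without a filter, 0 with no replicate block, 31 with the fixed hashtag rule, 5 with up to 50% mitochondrial UMIs, 205 with the 5% rule, 4 with other cuts, 1136 with quartiles, 9 with deep cells at 20000 UMIs and 16 without barcodes rich in other markers. Deep against shallow (2363) gave 587 with the fixed rule, 59 of 2605 tested with the 5% rule and 1123 with thinned deep cells. It gave 1024 to 2884 when 1 mouse was left out, lowest without hashtag 1. Without a filter the median of all genes was -0.15 from baseline to high and 0.22 for deep against shallow, and within 0.1 of 0 otherwise. The zeros are edgeR counts at the adjusted threshold.

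Calls were also gained. From low to intermediate, Slc10a1 passed without a filter, with the fixed hashtag rule, with other cuts and without barcodes rich in other markers (-1.39 to -2.15), and Abcb11 without a filter and without those barcodes (-1.35 and -1.34). From intermediate to high, quartiles gave calls for Slc10a1 (-2.81), Slco1b2 (-2.49) and Abcb11 (-1.33), no filter for Slc10a1 (-1.45) and Slco1b2 (-1.93), and the 5% rule for Slco1b2 (-2.69). From baseline to low, Abcc4 passed in 5 alternatives and Abcb11 without a filter (-0.62).

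Low against baseline lost its calls for Slc10a1 and Slco1b2 under the other cuts (-0.79 and -1.31) and under quartiles (-0.03 and -0.10). The step from low to intermediate lost Slco1b2 in 7 alternatives (adjusted p from 0.0529 to 0.534). Changes that turned sign were all of genes that did not pass. From baseline to low they were Abcb4 with quartiles (0.23) and Abcc2 with no replicate block (0.15), the 5% rule (0.068), quartiles (0.13) and thinning (0.13). From low to intermediate they were Abcc2 with the fixed hashtag rule (0.023) and other cuts (0.018), Abcc3 with the fixed rule (0.075), other cuts (0.10) and quartiles (0.041), and Abcc4 with the 5% rule (0.14), other cuts (0.36), quartiles (0.41) and thinning (0.24). From intermediate to high they were Abcb11 with DESeq2 (0.024), Abcb4 with the 5% rule (0.25) and thinning (0.32), and Abcc4 with 50% mitochondrial UMIs (0.038), quartiles (0.12) and thinning (0.13). Between deep and shallow, Slc10a1 ran from -0.023 (without hashtag 2) to 0.62 when 1 mouse was left out.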

Other observations

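Outside the hepatocyte rule, 67 deep barcodes held Nras at 250 CPM or more, with a median of 0.466% of UMIs from the 5 hepatocyte genes and mVenus at 303 CPM. They held 0.453 Slc10a1 (1 UMI), 3.17 Slco1b2 and 2.27 Abcb11 CPM, and 116 Abcc2, 53.5 Abcc3 and 76.2 Abcc4. Cholangiocyte markers summed to 11402 CPM there, led by Spp1, and antigen-presenting markers to 3978, led by Cd74.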
